A study of Homo sapiens with 18 samples.

Results

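The proteasome genes described here are the 10 genes in the deposited RNA-seq table whose symbol is PSM, a letter from A to G and a number. They are 10 of the 1242 genes in that table, and they were chosen by measured values: the table holds only genes whose difference between shFTO#5 and shControl the authors had called. They comprise PSMA5, PSMB3 and PSMB7 of the 20S core, PSMD2 of the 19S base, PSMD3, PSMD6 and PSMD13 of the 19S lid, PSME2 and PSME3 of the activators, and PSMD5, which is an assembly chaperone and not a subunit of the finished particle. The RNA came from UMRC2, a VHL-deficient human cell line of clear cell renal carcinoma, kept in DMEM with serum. One group had a non-targeting hairpin, labelled shControl, and the others shFTO#2 or shFTO#5, hairpins that target the m6A demethylase FTO, which takes the methyl group off N6-methyladenosine in RNA, with 2 RNA-seq libraries in each group. The labels call the hairpins transfections, and they do not say whether the cells were clones or pools, or whether the 2 replicates of a group were separate cultures, so the errors below may be technical. The 12 m6A input and immunoprecipitation libraries of the series were not analysed here.

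The 26S proteasome degrades proteins tagged with ubiquitin. Its 20S core is a stack of alpha and beta rings that holds the proteolytic sites, and its 19S regulator binds ubiquitinated proteins, removes the ubiquitin, unfolds them and feeds them into the core. The PA28 activators are rings that bind the core in place of the 19S regulator. In kidney cells with functional VHL, the hypoxia-inducible factors are among the proteins that this route removes. When proteasome activity falls, the transcription factor NRF1 (gene NFE2L1) raises the transcription of proteasome genes through antioxidant response elements, and the related factor NRF2 can act at the same kind of element.

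The table covered only part of the family. GENCODE release 29 annotates 48 protein-coding genes with names of this form, and 10 of them were listed: 1 of 8 of the alpha ring, 2 of 11 of the beta ring, 1 of 8 of the 19S base, 3 of 8 of the 19S lid, 1 of 3 19S assembly chaperones and 2 of 4 activators. No gene of the 19S ubiquitin receptor PSMD4, the inhibitor PSMF1 or the 4 assembly chaperones of the 20S core (PSMG) was listed. Beside these counts, 13.0% of all tested genes were called. The levels of the 38 other family genes were not analysed here, so nothing can be said of their direction.

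As deposited, all 10 proteasome genes were higher with shFTO#5 than with shControl, of which PSMB3 alone was below 0 after quantile normalization. The authors' p-values and their adjusted values together give 9551 genes tested, of which 13.0% were called and 8.18% were called higher. Because the call in this contrast is what put a gene in the table, the count of 10 is a description, as are all shFTO#5 differences below. Adjusted p among these genes ran from 4.91e-16 for PSMD2 to 0.0424 for PSMB3 in the authors' deposited table, whose largest adjusted p over all genes was 0.0499. No gene outside that threshold was listed. The rises were small, between 6.75% for PSMB3 and 22.6% for PSMD2, and 0 of the 10 reached 2-fold.

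Promoter sequence is shown for the genes with a core antioxidant response element near their start, because that element is the known link between proteasome genes and NRF1, and for PSMD2, which rose the most as deposited. Each run is the 250 bases before the RefSeq start site (GRCh38.p14), 5′ to 3′ on the strand of the gene. Capitals mark matches on either strand to the element core TGACNNNGC, the AP-1 site TGANTCA or the NF-Y binding CCAAT box (ATTGG on the other strand).
PSMB3 (chr17:38752491-38752740, plus strand): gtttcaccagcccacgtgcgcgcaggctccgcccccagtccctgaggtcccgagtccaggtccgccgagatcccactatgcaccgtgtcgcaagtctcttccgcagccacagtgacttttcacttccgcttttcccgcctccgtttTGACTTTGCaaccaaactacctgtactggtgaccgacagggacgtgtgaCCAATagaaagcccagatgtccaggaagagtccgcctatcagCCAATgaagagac
PSMD3 (chr17:39980557-39980806, plus strand): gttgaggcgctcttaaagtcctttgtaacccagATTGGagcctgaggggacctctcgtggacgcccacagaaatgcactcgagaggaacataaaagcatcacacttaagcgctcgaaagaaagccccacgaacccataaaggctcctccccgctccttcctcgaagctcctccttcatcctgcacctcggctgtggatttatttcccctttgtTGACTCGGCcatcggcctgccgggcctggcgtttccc
PSMD5 (chr9:120842923-120843172, minus strand): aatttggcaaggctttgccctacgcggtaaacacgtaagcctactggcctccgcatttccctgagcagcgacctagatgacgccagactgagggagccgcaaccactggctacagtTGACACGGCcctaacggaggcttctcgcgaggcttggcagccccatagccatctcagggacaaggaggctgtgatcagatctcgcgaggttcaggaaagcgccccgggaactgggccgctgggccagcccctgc
PSME2 (chr14:24146611-24146860, minus strand): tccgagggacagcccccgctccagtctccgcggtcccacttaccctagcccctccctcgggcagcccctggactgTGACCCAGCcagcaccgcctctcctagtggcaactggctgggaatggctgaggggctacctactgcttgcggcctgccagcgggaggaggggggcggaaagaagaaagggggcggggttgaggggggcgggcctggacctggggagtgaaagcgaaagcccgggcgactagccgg
PSMD2 (chr3:184298991-184299240, plus strand): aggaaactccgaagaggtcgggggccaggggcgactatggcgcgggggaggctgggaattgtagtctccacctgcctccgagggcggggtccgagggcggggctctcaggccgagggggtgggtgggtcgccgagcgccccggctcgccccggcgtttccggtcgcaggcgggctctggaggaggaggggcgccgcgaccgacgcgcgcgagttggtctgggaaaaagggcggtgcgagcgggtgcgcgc

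RefSeq windows of 250 bases before and 50 after a start site were at hand for 9 of the 10 genes, with 2 windows for PSMD2. The element core was found in 4 of these 10 windows, and 13.4% of all 35116 windows of that length hold it. In PSMB3 it begins at base -104 from the start site, in PSMD5 at base -134 and in PSME2 at base -175. PSMD3 holds the core at base -37 and again, on the other strand, at base 34 after the start. The CCAAT box was found in 5 of the 10 windows, repeated in PSMA5 and PSMB3 and single in PSMD3, PSMD6 and PSME3, against 34.6% of all windows. The AP-1 site was found in 1 window, at the downstream start of PSMD2, and 7.71% of all windows hold it. None of these matches overlaps another. The genes with the element core ranged from the smallest rise (PSMB3) to the third largest (PSME2). A match is a run of letters and not a measured binding site.

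**Figure D1:**
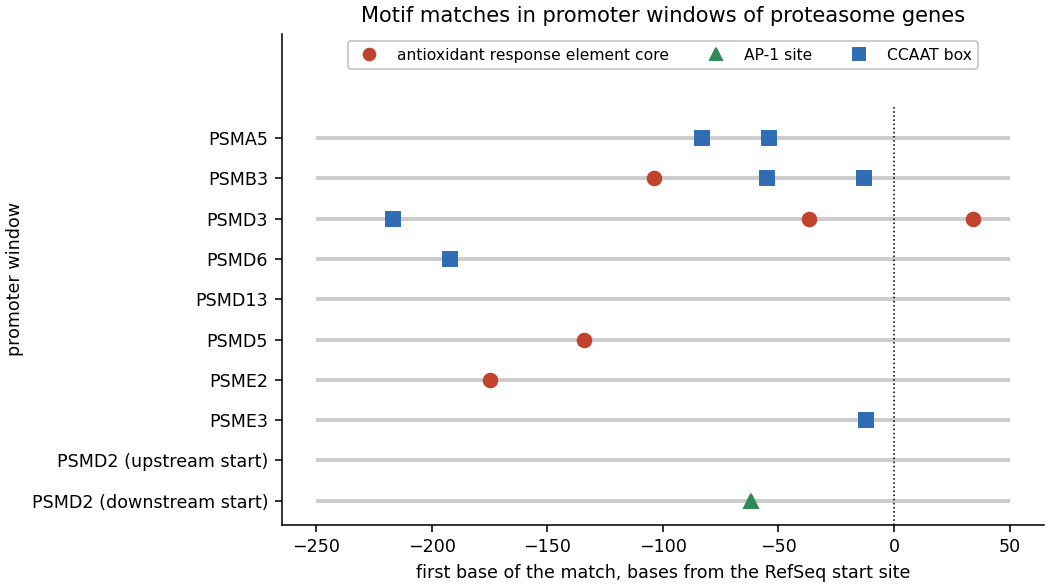
Positions of motif matches in the RefSeq promoter windows of 9 proteasome genes (PSMD2 has 2 starts). The horizontal axis is the distance of the first matched base from the start site in bases, each grey line is 1 window, and symbols mark the core antioxidant response element, the AP-1 site and the CCAAT box. The element core appears in 4 of the 10 windows.

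In the 20S core, the alpha ring subunit PSMA5 had the largest rise of the 3 listed genes. PSMA5 (ENSG00000143106, GRCh38 chromosome 1, 109399031 to 109426427, minus strand) measured 53.4 and 51.7 FPKM with shControl and 59.5 and 59.5 FPKM with shFTO#5. FPKM divides the reads of a gene by its length and by the total of its library. The knockdown libraries lay 6.15 FPKM or more above the control libraries. The group means were 52.5 ± 1.18 and 59.5 ± 0.020 FPKM (SD, n = 2 each), a rise of 13.3%. Changes are given as differences of log2(FPKM + 1), a scale that shrinks them in genes of low level, and in limma's fit over all 1242 genes PSMA5 changed by 0.18 ± 0.04 (SE).

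The beta ring subunits PSMB3 and PSMB7 had the highest levels of the 10 genes and lower relative rises than PSMA5. PSMB7 (ENSG00000136930, chromosome 9, 124353466 to 124415444, minus strand), which carries the trypsin-like proteolytic site, measured 309 and 313 FPKM with shControl and 346 and 337 FPKM with shFTO#5. These groups did not overlap, with means of 311 ± 2.85 and 342 ± 6.31 FPKM (SD, n = 2 each) and a log2 change of 0.14 ± 0.03 (SE). PSMB3 has no proteolytic activity of its own. PSMB3 (ENSG00000108294 in the table) measured 404 and 407 FPKM with shControl and 428 and 437 FPKM with shFTO#5, again with no overlap. Its log2 change of 0.094 ± 0.03 was the smallest of the 10, and it was -0.052 ± 0.01 after quantile normalization, lower past limma's threshold, so the direction of PSMB3 depends on the scaling. The gene lies on chromosome 17 (38752736 to 38764231, plus strand), where GENCODE release 29 gives it another identifier, ENSG00000277791.

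PSMD2 had the largest rise as deposited and after centring, whereas after quantile normalization PSME2 (0.26) and PSMD6 (0.26) exceeded it (0.22). PSMD2 is the non-ATPase scaffold of the 19S base known as Rpn1 in yeast, a docking site for ubiquitin, for shuttle factors and for the deubiquitinase USP14. PSMD2 (ENSG00000175166, chromosome 3, 184298709 to 184309054, plus strand) measured 181 and 176 FPKM with shControl and 217 and 220 FPKM with shFTO#5, from 9874 to 12775 reads per library. Both knockdown libraries were 36.4 FPKM or more above both control libraries. The means were 179 ± 3.39 and 219 ± 2.13 FPKM (SD, n = 2 each), and the log2 change was 0.29 ± 0.03 (SE).

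Of the 3 lid subunits, PSMD6 and PSMD13 rose by 20.5% and 17.5% and PSMD3 by 8.36%. All of them have a PCI domain, through which lid subunits assemble into a horseshoe. PSMD6 (Rpn7 in yeast, ENSG00000163636, chromosome 3, 64010549 to 64024010, minus strand) measured 19.8 and 19.7 FPKM with shControl and 24.1 and 23.4 FPKM with shFTO#5. PSMD13 (Rpn9 in yeast, ENSG00000185627, chromosome 11, 236546 to 252984, plus strand) measured 44.4 and 44.3 FPKM with shControl and 51.3 and 52.9 FPKM with shFTO#5. In both genes the control replicates nearly coincided and the groups did not overlap, with log2 changes of 0.26 ± 0.05 and 0.23 ± 0.04 (SE). PSMD3 (Rpn3 in yeast, ENSG00000108344, chromosome 17, 39980797 to 39997960, plus strand) went from 139 and 144 to 152 and 154 FPKM. The gap between its groups was 8.41 FPKM and its log2 change 0.12 ± 0.03 (SE).

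The 2 activator genes differed in level and in rise. PSME2 encodes the beta subunit of PA28, a cytoplasmic ring known for its part in making peptides for antigen presentation. PSME2 (ENSG00000100911, chromosome 14, 24143362 to 24147570, minus strand) was the lowest of the 10 genes, at 17.17 and 17.99 FPKM with shControl and 20.9 and 21.2 FPKM with shFTO#5. It also had the fewest reads, 805 to 979 per library, and its log2 change was 0.24 ± 0.05 (SE), of which counting alone gives an SE of 0.05. PSME3 encodes PA28 gamma, a nuclear ring that forms from this subunit alone. PSME3 (ENSG00000131467, chromosome 17, 42824385 to 42843758, plus strand) measured 67.4 and 69.6 FPKM with shControl and 74.0 and 75.1 FPKM with shFTO#5, a log2 change of 0.12 ± 0.04 (SE). Neither gene had overlapping groups.

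PSMD5 is the chaperone that holds the ATPases PSMC1 and PSMC2 together with PSMD2 during assembly of the base. PSMD5 (ENSG00000095261, chromosome 9, 120815496 to 120842984, minus strand) measured 25.9 and 23.9 FPKM with shControl and 29.8 and 27.3 FPKM with shFTO#5. It had the widest spread between replicates of the 10 genes, 0.12 and 0.13 on the log2 scale, and its groups were only 1.43 FPKM apart. The log2 change was 0.19 ± 0.05 (SE) and ranged from 0.13 to 0.25 when a library was left out.

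**Figure D2:**
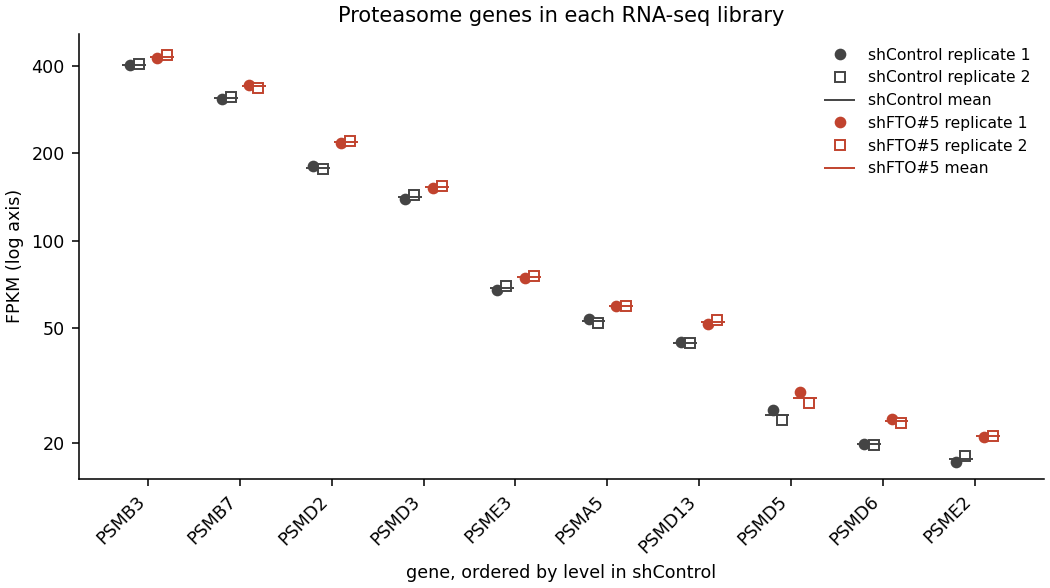
Level of the 10 proteasome genes in each shControl and shFTO#5 library in FPKM on a log axis, with genes ordered by their mean in shControl. Points are libraries (2 per group) and short lines are group means, and in every gene both shFTO#5 libraries lie above both shControl libraries (for PSMB3 the difference is -0.052 on the log2 scale after quantile normalization). The groups do not overlap in any of the 1242 listed genes, higher or lower.

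The levels spanned a wide range, although a finished particle holds the core and regulator subunits in fixed numbers. In shControl the order per length was PSMB3 (405 ± 2.07 FPKM), PSMB7 (311 ± 2.85), PSMD2 (179 ± 3.39), PSMD3 (141 ± 3.35), PSME3 (68.5 ± 1.53), PSMA5 (52.5 ± 1.18), PSMD13 (44.4 ± 0.0560), PSMD5 (24.9 ± 1.44), PSMD6 (19.7 ± 0.0614) and PSME2 (17.6 ± 0.578; SD, n = 2 each). No neighbours in this order overlapped between their control libraries. The scale depends on the gene length in the authors' deposited table, which is 773 bases for PSMB3 and 988 for PSMB7 but 3729 for PSMA5 and 4583 for PSMD6. The order was the same in the shFTO#5 means.

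Summed over the 10 genes, FPKM rose from 1264 ± 4.24 with shControl to 1406 ± 3.74 with shFTO#5 (SD, n = 2 each), or by 11.3%. Their reads were 0.238% of the library total in both control libraries (95% Wilson intervals 0.236% to 0.240% and 0.235% to 0.240%). With shFTO#5 they were 0.270% (0.267% to 0.273%) and 0.271% (0.269% to 0.274%), so the intervals of the groups did not meet. These intervals cover counting error only. Each of the 10 genes was listed for its call in this contrast, so the separation of their sum is a description. All listed genes together held 32.1% and 32.4% of the reads in the control libraries and 33.7% and 34.0% with shFTO#5. The libraries had been scaled to totals between 14548533 and 18184675 reads, with the lowest total in a knockdown library. In bulk RNA, more RNA per cell and a different make-up of the cells cannot be told apart.

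The rises of the proteasome genes were of the size usual in this table. Their median log2 change was 0.19, with 10 of 10 higher, beside a median of 0.15 over all 1242 listed genes, of which 62.9% were higher. Among the 781 higher genes the median was 0.22, and 4 of the 10 proteasome genes exceeded it. All 1242 listed genes, 100% of them, had shControl and shFTO#5 libraries that did not overlap, so the lack of overlap in the 10 genes is a property of the table. Centring each library on its median over the listed genes lowered every change by 0.09. All 10 genes then still had positive changes, with a median of 0.10, but PSMB3 was at 0.01 ± 0.03, PSMD3 at 0.03 ± 0.03 and PSME3 at 0.03 ± 0.04 (SE). After quantile normalization 9 of 10 were higher and the median was 0.11. PSMD2 (0.20 and 0.22), PSMD6 (0.17 and 0.26), PSME2 (0.16 and 0.26) and PSMD13 (0.14 and 0.14), with the centred value first and the quantile-normalized value after it, had the largest changes after centring. After quantile normalization PSME2 and PSMD6 came before PSMD2, and PSMD5 (0.17) before PSMD13.

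**Figure D3:**
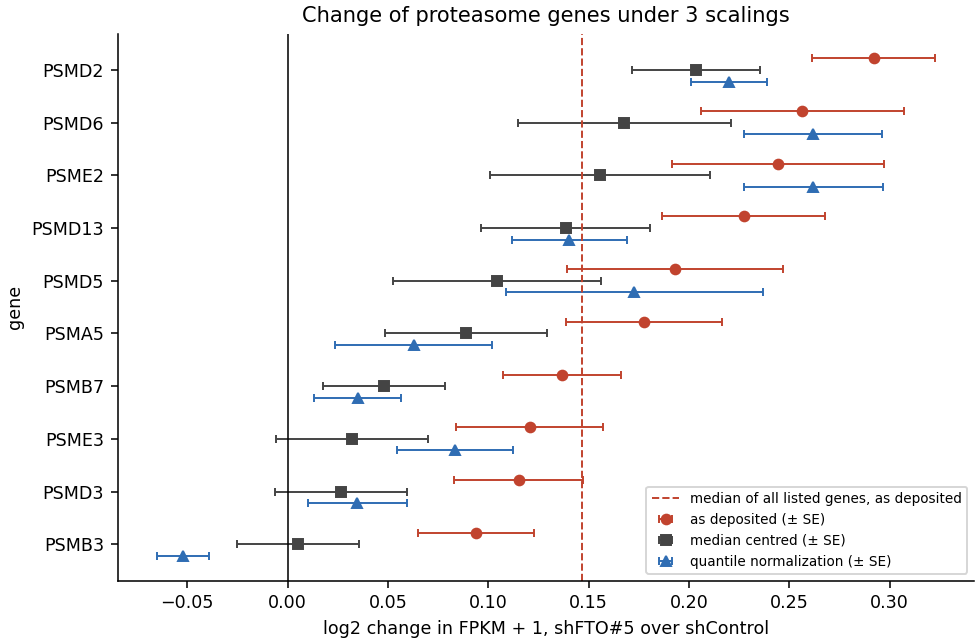
Log2 change of FPKM + 1, shFTO#5 over shControl, for the 10 proteasome genes under 3 scalings, with SE from limma as bars (2 libraries per group). The dashed line is the median of all listed genes as deposited (0.15), and PSMB3 crosses 0 after quantile normalization.

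FTO, the target of the hairpins, fell in both knockdown groups. FTO measured 1.99 and 2.37 FPKM with shControl, 0.882 and 0.720 FPKM with shFTO#2 and 0.555 and 0.526 FPKM with shFTO#5, so all 4 knockdown libraries lay below both controls. Its shFTO#2 values were placed on it by whole reads, gene order and the deposited fold change, because those columns are out of order. Only genes called with shFTO#2 have such values, so their place below the controls is a description. The exact two-sided permutation p for shFTO#5 was 0.333, the smallest that 2 libraries against 2 allow. All 1242 listed genes, FTO among them, had shControl and shFTO#5 libraries that did not overlap. This p is therefore the same for each listed gene, and the fall of FTO with shFTO#5 is a description.

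With shFTO#2, only PSMD2 among the 10 genes could be tied to a value. The 766 shFTO#2 entries do not follow the gene order of the other columns, so each entry was matched to a gene by the length that turns it into whole reads in both libraries. For PSMD2 there was 1 such entry, which was whole with the length of no other listed gene, and for the 9 other genes there was none. Those 9 were therefore not among the authors' 766 shFTO#2 calls, which were 7.63% of 10038 genes tested (4.17% higher), and their shFTO#2 levels were not analysed here. A missing call does not show that they did not change.

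With shFTO#2 the level of PSMD2 was 203 FPKM in one library (12204 reads) and 198 FPKM in the other (10667 reads). Both values lay above both control libraries and below both shFTO#5 libraries. Only genes called with shFTO#2 have such values, so the place above the controls is a description. The mean of 201 ± 3.08 FPKM (SD, n = 2) was 112% of the control level, beside 123% with shFTO#5. In a fit of all 3 groups over the 561 genes with shFTO#2 values that could be placed, the log2 change of PSMD2 was 0.17 ± 0.03 with shFTO#2 and 0.29 ± 0.03 with shFTO#5 (SE). The difference between the hairpins was 0.13 ± 0.03 (SE) and was not tested, since PSMD2 is listed for its shFTO#5 change. Both comparisons use the same control libraries. In the authors' deposited table the shFTO#2 entry has a log2 change of 0.18 and an adjusted p of 2.07e-04. FTO was at 36.7% of its control level with shFTO#2 and at 24.8% with shFTO#5. A relation between the levels of FTO and PSMD2 was not tested.

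**Figure D4:**
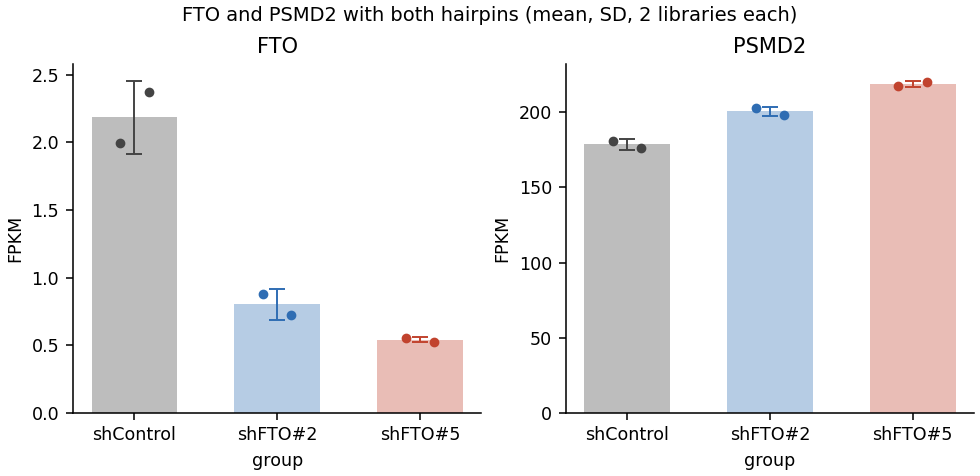
FTO (left) and PSMD2 (right) in FPKM in the 3 RNA-seq groups. Bars are means, error bars SD and points the 2 libraries of each group. The shFTO#2 values are placed entries, which exist for called genes only. FTO is lowest and PSMD2 highest with shFTO#5, with shFTO#2 between shFTO#5 and shControl in both. A relation between the 2 genes was not tested.

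Among factors that work with the proteasome but have other names, 3 of 14 genes of a list were in the table, and 2 of them were higher. Beside these counts, 13.0% of all tested genes were called, and 62.9% of all listed genes were higher. UCHL5, a deubiquitinase that docks on the 19S regulator, measured 26.3 ± 0.748 FPKM with shControl and 31.6 ± 0.601 FPKM with shFTO#5, a log2 change of 0.26 ± 0.05 (SE). USP14, the deubiquitinase that docks on PSMD2, had a log2 change of 0.17 ± 0.05. AKIRIN2, which is needed for the import of proteasomes into the nucleus, fell from 80.4 ± 0.961 to 65.7 ± 0.769 FPKM (-0.29 ± 0.04). Of UCHL5 and USP14, only UCHL5 had an entry placed on it among the shFTO#2 values. That entry was at 32.5 and 31.1 FPKM, above both controls (26.8 and 25.7 FPKM). Such entries exist for called genes only, so this too is a description. Whether the UCHL5 entry is also whole with the length of another listed gene was not analysed here. Unlike PSMD2, UCHL5 was at nearly the same level with both hairpins, 121% of control with shFTO#2 and 120% with shFTO#5. The log2 difference between the hairpins was -0.006 ± 0.04 (SE).

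Upstream of the proteasome, the lists of the ubiquitin system are given by their listed genes, beside the 13.0% of all tested genes that were called. Among ubiquitin genes, RPS27A, which encodes ubiquitin fused to a ribosomal protein, had a log2 change of 0.13 ± 0.03 (SE). Of 10 genes of the VCP segregase, which unfolds ubiquitinated proteins, the cofactor NSFL1C was listed and higher (0.19 ± 0.05). Of 21 cullin ligase genes only CUL1, the scaffold of SCF ligases, was listed, with 0.22 ± 0.04. Of 18 genes of the anaphase-promoting complex 5 were listed and 4 higher, among them the activator CDC20 (0.24 ± 0.03) and the subunit CDC27 (0.23 ± 0.06), while its cullin subunit ANAPC2 fell by 0.22 ± 0.04. All 3 listed of 18 other deubiquitinases were higher: USP10 (0.17 ± 0.04), BAP1 (0.17 ± 0.05) and USP7 (0.17 ± 0.05). The 8 shuttle factors and 15 genes of endoplasmic reticulum degradation had 0 listed members.

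The COP9 signalosome and the translation initiation factor eIF3 are built on the same PCI and MPN plan as the proteasome lid. Of 10 signalosome genes 2 were listed and both were higher, COPS2 (0.23 ± 0.06) and COPS6 (0.19 ± 0.03). Of 13 eIF3 genes 5 were listed and all were higher as deposited (4 after centring and 3 after quantile normalization), led by EIF3D (0.33 ± 0.03), EIF3G (0.19 ± 0.03) and EIF3H (0.13 ± 0.04). The 3 lid genes, for comparison, had log2 changes from 0.12 to 0.26. Over all tested genes, 13.0% were called and 8.18% were called higher.

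Of 12 genes of transcription factors known to act on proteasome promoters and of their activators, 1 was listed, where 13.0% of all tested genes were called. It was MAFF, a small MAF protein that pairs with NRF1 and NRF2, at 9.45 ± 0.568 FPKM with shControl and 13.0 ± 0.98 FPKM with shFTO#5 (log2 change 0.42 ± 0.06). Most of the listed antioxidant genes that NRF2 controls were lower, whereas the listed proteasome genes were higher as deposited. Of 20 in the list 12 were in the table, 11 lower and 1 higher, with a median log2 change of -0.27, among them OSGIN1 (-0.52 ± 0.04), the ferritin heavy chain gene FTH1 (-0.43 ± 0.04) and AKR1B10 (-0.43 ± 0.03). The higher one, the peroxiredoxin gene PRDX1 (0.14 ± 0.03), was picked out after its value was seen. The 4 proteasome genes with an antioxidant response element core had log2 changes of 0.094 (PSMB3), 0.12 (PSMD3), 0.19 (PSMD5) and 0.24 (PSME2), PSMB3 being below 0 after quantile normalization. A part of NRF1 or NRF2 in these changes was not tested.

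Of 18 heat shock chaperones, which share the handling of misfolded proteins with the proteasome, 10 were listed and 9 higher (8 after centring, 7 after quantile normalization). HSPA8 had a log2 change of 0.30 ± 0.03 and HSP90AB1 one of 0.27 ± 0.03, whereas the small heat shock protein gene CRYAB fell by 0.33 ± 0.03. On the side of antigen presentation, where the peptides made by PA28-capped proteasomes are used, 2 of 14 genes were listed and higher as deposited, PDIA3 and CALR (0.10 ± 0.04 and 0.10 ± 0.03), CALR being at -0.016 after quantile normalization. As background for these counts, 13.0% of all tested genes were called, and 62.9% of all listed genes were higher.

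**Figure D5:**
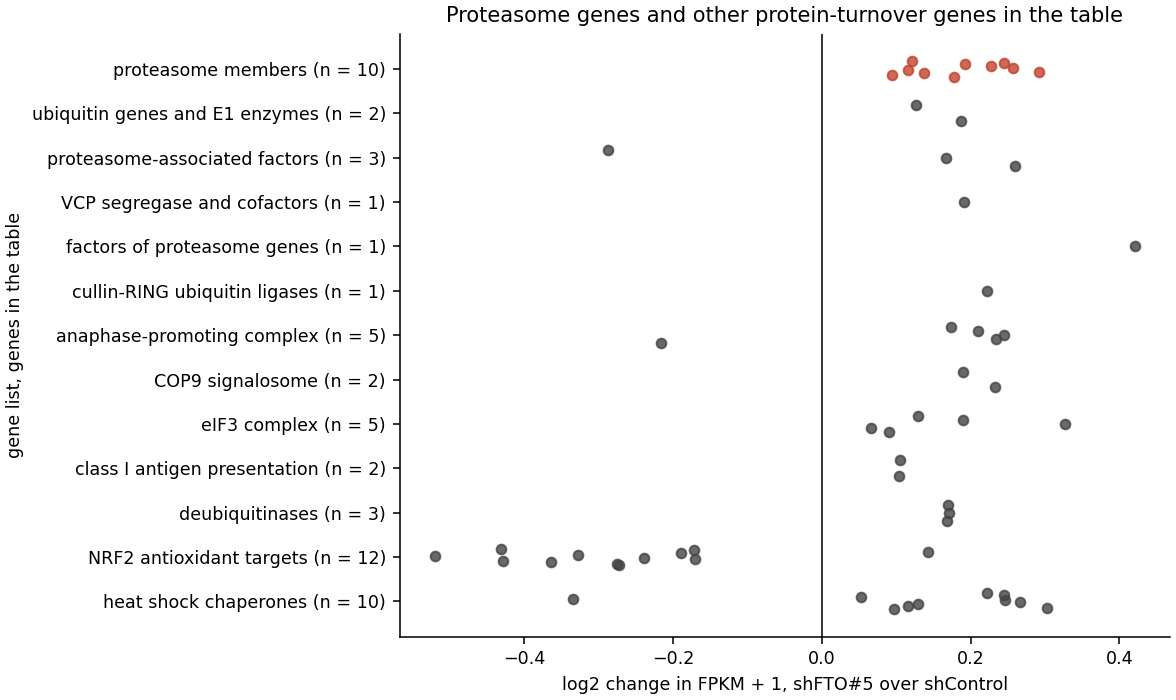
Log2 change of FPKM + 1, shFTO#5 over shControl, of every listed gene of the proteasome family and of each gene list with at least 1 listed gene; each point is 1 gene, as deposited. The 10 proteasome genes lie between 0.09 and 0.29 (PSMB3, the lowest, is below 0 after quantile normalization), and 11 of the 12 listed NRF2 targets lie below 0.

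Some of these measurements could include reads of other genes. GENCODE release 29 names 2 pseudogenes of PSME2, 1 of PSMB3 and 1 of PSMB7, and the handling of shared reads was not given in the sources used here. Exons of PSME2 overlap those of RNF31 on the other strand by 216 bases and also cover MIR7703, and those of PSME3 overlap BECN1 by 300 bases. PSMD13 shares 316 exon bases with SIRT3, and PSMD6 shares 441 and 352 with the antisense genes PSMD6-AS1 and PSMD6-AS2. Whether counting used the strand was not stated there either, and none of these neighbours was listed. PSMD2, PSMD3, PSMD5 and PSMA5 had neither a pseudogene of their name nor an overlapping exon.

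Of the renal and clear cell carcinoma markers checked, 4 of 8 were listed: PAX8 (77.9 ± 2.10 FPKM in shControl, SD, n = 2), CA9 (14.3 ± 0.160), PAX2 (7.70 ± 0.139) and LRP2 (4.62 ± 0.505). Of 4 immune, 3 endothelial and 4 fibroblast markers 0 were listed, and their levels were not analysed here. A marker is listed when it was called with shFTO#5, as 13.0% of all tested genes were. The counts of listed markers therefore do not show which cell types were present. PAX8 and CA9 were higher and PAX2 and LRP2 lower with shFTO#5. The part of any shift in cell state in the proteasome changes was not tested.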

How the data were processed

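The 6 RNA-seq libraries were grouped by their titles. For genes called with shFTO#5, the authors deposited FPKM per library, log2 fold changes, and raw and adjusted p-values, per the file headers. The submitters' processing notes list Trim Galore 0.4.2, STAR, RSEM and hg38, with no roles given. The deposited fold changes are control over knockdown and were reversed here, which matched the FPKM means in 1242 of 1242 genes. FPKM times the deposited gene length gave whole reads (tolerance 1e-05) in all shControl and shFTO#5 values. The totals of the shFTO#2 libraries were inferred (17448921 and 15585908), and 561 of 766 entries were placed by whole reads, gene order and the deposited fold change.

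Limma 3.58.1 in R 4.3.3, with an intensity trend, was run on log2(FPKM + 1) in shControl and shFTO#5, keeping genes that reached 1 FPKM in 2 or more libraries. Its results give sizes and errors, not new calls, because every listed gene was already called. The procedures were tested on simulated data. Of the table's identifiers, 12 were not in GENCODE release 29. Promoters came from RefSeq. The members and the 14 gene lists were chosen with earlier results of these data known. Named were all members, FTO and the 3 listed genes of each list with the largest change. Exceptions are said in the text, and 1 gene that this rule names is not reported here. FTO was also put through an exact two-sided permutation test, which gives the same p for every listed gene. Alternatives were other pseudocounts and filters, centring, quantile normalization, a replicate block, limma-voom on recovered reads and leaving out each library.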

Additional observations from a re-analysis of the deposited data

How the results depend on the processing

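Limma's fit put 777 listed genes higher and 461 lower past its threshold, and all 10 proteasome genes among the former. Every listed gene had already been called in this contrast. The counts past the threshold in this section are therefore descriptions and not new calls. Centring left 5 of the 10 proteasome genes higher past the threshold, beside 534 of all 1242 listed genes higher and 461 lower. Under quantile normalization 6 of the 10 were past it, 5 higher (PSMD2, PSMD6, PSMD13, PSME2 and PSME3) and PSMB3 lower. Of all listed genes, 550 were then higher and 455 lower past it. These scalings put the median log2 change of the 10 genes at 0.10 and 0.11 in place of 0.19, and quantile normalization put PSMB3 at -0.052 (limma, adjusted p = 0.0160). A pseudocount of 5 gave a median of 0.17. Leaving out 1 library at a time gave medians from 0.15 to 0.21, 10 of 10 genes higher each time, 9 to 10 of them past the threshold (PSMD5 lost without shFTO#5 replicate 1, PSMB3 without shFTO#5 replicate 2), 720 to 752 genes higher and 461 lower. Whether same-numbered libraries share more than a label is not known. Their deviations correlated at 0.09 across the listed genes, which cannot settle it. With the replicate number as a block 781 genes were higher and 461 lower. The other filters, a pseudocount of 0.1, limma-voom on recovered reads and the block kept all 10 genes higher and past the threshold. FTO stayed lower past the threshold wherever fitted, and had no value with at least 10 FPKM required. Placement without the fold change criterion left the shFTO#2 change of PSMD2 at 0.17. Centring and quantile normalization rest on called genes only. At 805 to 979 reads, PSME2 has the least precise count of the 10 genes.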
